A study of Homo sapiens with 5 samples.

Results

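Integrins, laminins and the proteins of the hemidesmosome were described here at the level of open chromatin in MCF10A, an immortalized and non-tumorigenic human mammary epithelial cell line. The set held 40 genes of 19663 protein-coding genes, chosen by name among integrin alpha and beta chains and laminin chains, together with PLEC, DST and CD151 of the hemidesmosome. Chromatin was probed by ATAC-seq, in which the Tn5 transposase cuts and tags accessible DNA, and regions of local read enrichment are termed hotspots. A hotspot that reaches within 1000 bp of an annotated transcription start of a gene is its promoter hotspot, and an assigned hotspot has its nearest protein-coding start, within 100 kb, at that gene. By these rules 419 of 181723 hotspots belonged to the 40 genes.

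All cells were of 1 group, at baseline and with no comparison treatment. They grew with 5% horse serum, 20 ng/ml EGF, 0.5 µg/ml hydrocortisone, 100 ng/ml cholera toxin and 10 µg/ml insulin. Libraries of 5 replicates were merged by the authors before hotspots were called, so no value has a replicate error, the depth is unknown, and no test between samples could be made. Intervals of shares are exact (Clopper-Pearson) 95% intervals that cover counting error only. Each hotspot carries a score, whose reference is not stated and which is used here to rank hotspots. The median score of all hotspots was 5.81, and the top 10% began at 16.1. Of 6 basal mammary markers, 4 had a promoter hotspot, with scores between 18.0 and 30.8, while KRT14 and TP63 had none. Of 6 luminal mammary markers, 5 had one, with scores between 7.12 and 33.1 and 4 of them in the top 10%. KRT19 had none, and the hotspot of KRT18 is shared with KRT8. Over all protein-coding genes, 74.9% had a promoter hotspot and 46.8% had one in the top 10%. Median scores were 21.2 at basal and 23.7 at luminal markers, near the 20.7 of all genes with a promoter hotspot. Of 5 fibroblast markers 4 had a promoter hotspot, with a median of 9.50 and COL1A1 the highest at 24.1. Of 5 leukocyte markers 2 had one, with scores of 4.79 (SPI1) and 10.9 (CD68), and both such hotspots at the 3 endothelial markers scored near 5 (4.96 and 5.10).

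Integrins are pairs of an alpha and a beta chain that hold cells to the extracellular matrix, and laminins are trimers of an alpha, a beta and a gamma chain that build the basement membrane. In basal cells of stratified and glandular epithelia, the integrin made of the ITGA6 and ITGB4 chains binds the epithelial laminin that contains the LAMA3 and LAMB3 chains. Inside the cell it is tied to keratin filaments through plectin (PLEC) and BP230 (DST), and the tetraspanin CD151 sits with it in the membrane. This complex is the hemidesmosome. Accessible DNA at a gene is not a measure of its expression, and the nearest gene of a hotspot need not be the gene it acts on.

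Sequence upstream of the starts under the highest promoter hotspots is shown for LAMA3, ITGA6, DST and LAMB3 among the hemidesmosome genes. This role list had the highest median promoter score when each gene was taken at its highest-scoring start. Each is hg38 sequence in the direction of transcription that ends at the base before the first annotated start inside the hotspot, and capitals mark matches to the AP-1, TEAD, RUNX, ETS, SP/KLF, CREB or TATA box motif, whose letters are given with the motif shares. The LAMA3 stretch (chr18:23872748-23873019, plus strand) lies inside the gene, upstream of the transcripts LAMA3-201 and LAMA3-207, and its capitals are 3 AP-1 sites. The ITGA6 stretch is chr2:172427204-172427353 on the plus strand, with a TATA box match on the opposite strand in capitals. DST is shown from chr6:56542809-56542958 (minus strand, upstream of DST-232) and LAMB3 from chr1:209652426-209652575 (minus strand), and neither of these held a match.
LAMA3 start: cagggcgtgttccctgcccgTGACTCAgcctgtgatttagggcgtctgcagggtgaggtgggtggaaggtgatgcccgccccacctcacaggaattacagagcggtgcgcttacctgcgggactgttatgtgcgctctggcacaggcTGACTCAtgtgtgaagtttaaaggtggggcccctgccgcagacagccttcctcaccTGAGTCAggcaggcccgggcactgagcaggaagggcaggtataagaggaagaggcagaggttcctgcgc
ITGA6 start: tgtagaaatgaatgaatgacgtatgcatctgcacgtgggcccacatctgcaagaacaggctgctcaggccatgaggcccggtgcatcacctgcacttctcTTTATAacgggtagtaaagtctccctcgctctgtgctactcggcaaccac
DST start: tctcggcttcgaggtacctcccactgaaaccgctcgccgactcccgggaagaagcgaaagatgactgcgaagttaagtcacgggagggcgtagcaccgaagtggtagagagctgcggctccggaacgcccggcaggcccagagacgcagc
LAMB3 start: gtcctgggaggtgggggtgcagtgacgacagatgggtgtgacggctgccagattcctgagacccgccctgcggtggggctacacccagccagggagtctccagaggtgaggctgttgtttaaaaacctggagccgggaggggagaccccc
The stretches differed in composition. Bases G and C made up 63.3% of the DST stretch, which held 16 CpG dinucleotides, 64.7% of the LAMB3 stretch, with 5 CpG, and 52.7% of the ITGA6 stretch of the same length, with 6 CpG. The 3 LAMA3 sites began 252, 125 and 69 bases upstream of the start of LAMA3-201 and LAMA3-207. The AP-1 site was searched as TGAGTCA or TGACTCA, which are each other's reverse complement, and the TATA box as TATAAA on both strands. In 300 bp windows at the midpoints of promoter hotspots, an AP-1 site was present in 7 of the 61 that belong to these genes (11.5%, interval 4.74 to 22.2) and in 5.38% of all 19599. A TATA box match was in 4 of the 61 (6.56%) and in 3.41% of all.

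Outside or beside the starts, the highest-scoring assigned hotspot with an AP-1 site was taken for ITGA6, DST, LAMB3 and CD151, with the site in capitals. ITGA6 is shown at chr2:172442202-172442261 (plus strand), where 2 sites begin 13 bases apart in the first of its distal hotspots by score. DST is shown at chr6:56938824-56938930 (minus strand), where 2 sites begin 60 bases apart, and LAMB3 at chr1:209653124-209653170 (minus strand), 725 bases upstream of its first start. At CD151 (chr11:835130-835158, plus strand) the site lies at a promoter hotspot, and the stretch is kept short because it overlaps an untranslated region.
ITGA6 intron: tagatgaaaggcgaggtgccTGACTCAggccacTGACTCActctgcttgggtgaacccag
DST intron: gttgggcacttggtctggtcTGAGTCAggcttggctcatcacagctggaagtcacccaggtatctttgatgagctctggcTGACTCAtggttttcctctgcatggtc
LAMB3 upstream: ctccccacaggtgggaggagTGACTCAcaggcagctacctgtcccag
CD151 promoter: gctagcaggggTGAGTCAgcagtgatggc
The ITGA6 and DST pairs lie in introns. A match is a description of the letters and not a measured binding site.

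Of the 40 genes, 28 (70.0%, interval 53.5 to 83.4) had a promoter hotspot, against 74.9% of all protein-coding genes, so the share over the whole set was near the background. A promoter hotspot in the top 10% of scores was present at 14 genes (35.0%, interval 20.6 to 51.7), against 46.8% of all genes. Among genes with a promoter hotspot the median of the highest score was 15.2 in the set and 20.7 over all genes. With each gene taken at the highest of all its starts, medians differed between the role lists, which were chosen with earlier results of these data known. Genes with no promoter hotspot are left out of these medians, among them 2 of 10 matrix-binding integrins and 5 of 10 leukocyte and platelet integrins. These highest promoter scores had medians of 30.5 at the hemidesmosome and its laminin, 23.8 at matrix-binding integrins and 13.7 at other laminin chains. They were 6.53 at leukocyte and platelet integrins and 6.04 at alpha chains of muscle, kidney, cartilage and mesenchyme. Single genes overlapped between lists, with 13.4 to 35.3 at the hemidesmosome and its laminin, 10.9 to 40.2 at matrix-binding integrins and 7.87 to 26.2 at other laminin chains. At the starts of the transcript that Ensembl names canonical, the hemidesmosome list scored 35.3 (ITGA6), 30.5 (ITGB4), 29.7 (DST), 24.2 (LAMB3), 17.6 (LAMA3), 15.1 (PLEC) and 10.8 (CD151). The middle value was then 24.2, near the 23.8 of the 8 matrix-binding integrins with a promoter hotspot, whose highest scores all lay at such starts.

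**Figure D1:**
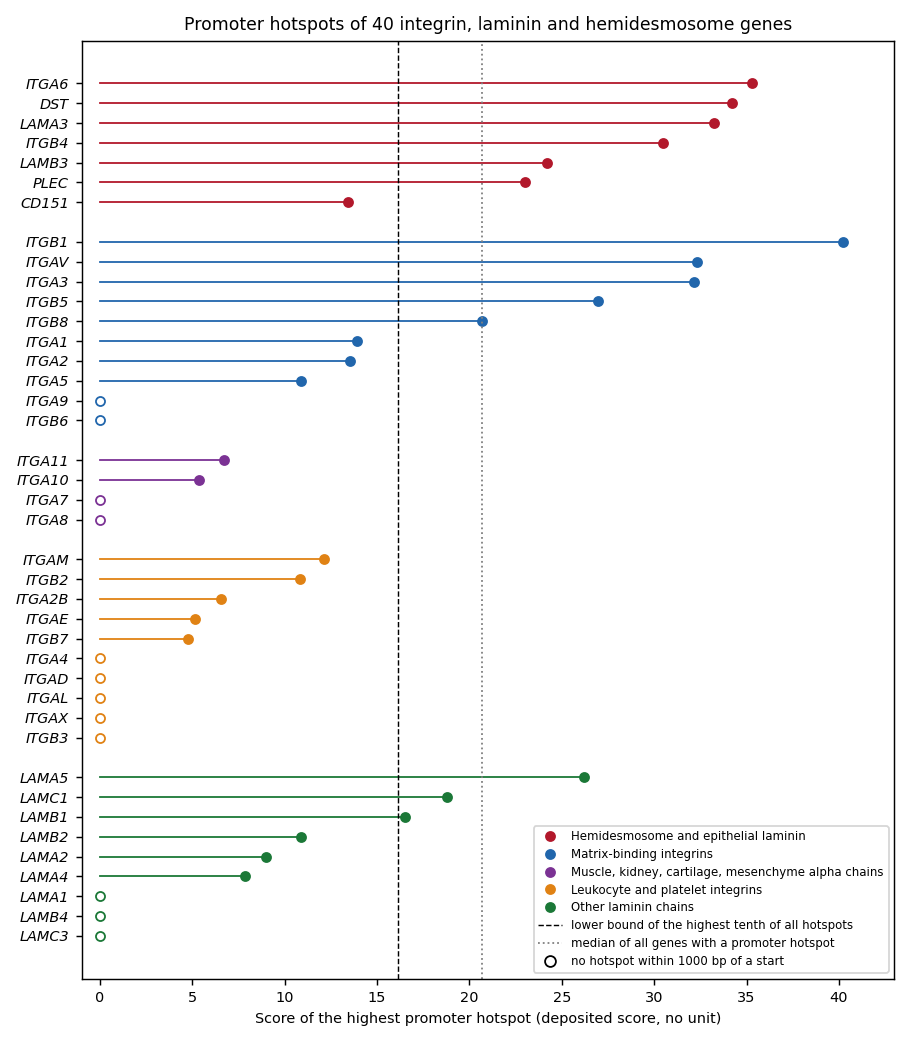
Score of the highest promoter hotspot (x axis, deposited score without a unit) for each of the 40 genes (y axis), coloured by role list, with open circles for genes with no promoter hotspot. The dashed line is the lower bound of the top 10% of all hotspots (16.1) and the dotted line the median of all genes with a promoter hotspot (20.7). Of the 7 hemidesmosome and laminin genes 6 lie right of the dashed line, and 0 of the 10 leukocyte and platelet integrins do.

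All 7 genes of the list for the hemidesmosome and its laminin had a promoter hotspot (interval 59.0 to 100%), and at 6 of them it was in the top 10% (interval 42.1 to 99.6%). Both intervals included the shares of all genes, 74.9% and 46.8%. The list is not the whole complex, since it holds LAMA3 and LAMB3 but no gamma chain of that laminin. ITGA6 (chromosome 2, 172427354 to 172506459) scored 35.3 in a hotspot of 1862 bp over its first starts, while the start of ITGA6-205, 60.6 kb further in, had none. ITGB4 (chromosome 17, 75721328 to 75757818) scored 30.5 at its first starts in a hotspot of 1533 bp, and 5.09 at an internal start. LAMB3 (chromosome 1, 209614870 to 209652425) had 3 promoter hotspots, of which the highest, 24.2, covered the first starts. CD151 (chromosome 11, 832887 to 839831) was the lowest of the list at 13.4, below the top 10%. It had 2 hotspots in all, both at its starts, in a gene with only 8.47 kb of sequence nearer to its starts than to those of its neighbours.

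LAMA3, DST and PLEC each had their highest promoter hotspot away from the first start of the gene. LAMA3 gives a long and a short alpha chain from separate promoters, and the short form is the one of the epithelial laminin in hemidesmosomes. In mouse keratinocytes, AP-1 sites upstream of the start of the short form are known to take part in its transcription. LAMA3 spans 23689453 to 23956222 on chromosome 18. Its first starts, those of LAMA3-202 and LAMA3-203, with annotated lengths of 10651 and 9834 bases, had a hotspot of 17.6. The starts of LAMA3-201 and LAMA3-207, with 5618 and 5007 bases, lie 183.6 kb further in and had one of 33.2 (chromosome 18, 23872600 to 23873451). A start of LAMA3-206, 195.3 kb in, scored 8.62, one of LAMA3-215 scored 4.48, and the remaining 4 of 8 start groups had no hotspot. A start group is a run of starts with gaps of at most 500 bp.

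The hotspot of 33.2 is the one whose sequence with 3 AP-1 sites is printed above. Over whole hotspots, 3 or more AP-1 sites were present in 2 of the 61 promoter hotspots of the set (3.28%), against 42 of all 19599 (0.214%). The 2 are this LAMA3 hotspot and one of PLEC. The LAMA3 hotspot is thus part of the count it is set beside, which describes 2 cases and tests nothing. Of the distal hotspots of the set, 0 of 358 held 3 or more, against 0.256% of all assigned distal hotspots. At least 1 site was present in 15 of 61 (24.6%), against 11.1% of all promoter hotspots. Median widths were 577 bp in the set and 654 bp over all promoter hotspots. A wider hotspot holds more sequence, and the widths of the hotspots with a site were not compared. In the 300 bp windows, of equal length, the interval of the set (4.74 to 22.2) included the 5.38% of all.

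DST encodes BP230, the short epithelial form, and much longer forms of muscle and nerve, and spans 56457987 to 56954830 on chromosome 6. Of its 12 start groups 7 had a hotspot. The score was 29.7 at the first starts (DST-209 and DST-241, of 17777 and 24709 bases). That hotspot has its midpoint nearest to a start of another gene, so it is not among the assigned hotspots of DST. Its signal cannot be told apart from that of the neighbour. Further in, the score was 13.5 at starts 111.2 kb in, 6.74 at 261.5 kb, and 13.1 at 311.8 kb. It was 34.2 in 1 hotspot (chromosome 6, 56542423 to 56543258) shared by the neighbouring starts of DST-232 and DST-203, 412.0 and 412.6 kb in, of which DST-203 has 9416 bases. A start 480.8 kb in scored 5.24. The highest and the first of these starts thus differed by less than 5 score units, and both were in the top 10%.

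Plectin is encoded with many alternative first exons, of which different ones serve different junctions. Of 11 start groups of PLEC (chromosome 8, 143915153 to 143976734), 8 had a hotspot, the largest number in the set. Scores were 12.6 at both first groups, which share a hotspot, 10.9 at 3.21 kb, 11.5 at 22.8 kb and 6.31 at 25.9 kb. They were 23.0 in a hotspot shared by PLEC-203 and PLEC-206, 32.8 and 34.2 kb in, and 15.1 at PLEC-202, 37.1 kb in, the transcript that Ensembl names canonical.

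**Figure D2:**
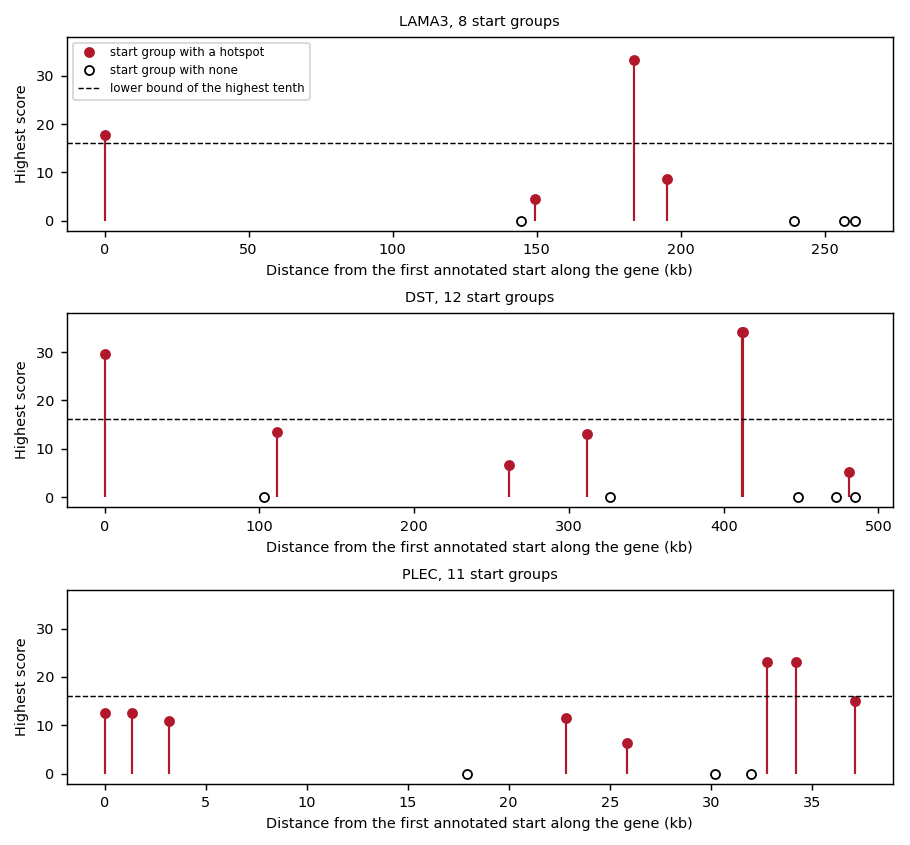
Highest hotspot score within 1000 bp (y axis) of each start group of LAMA3, DST and PLEC against its distance from the first annotated start (x axis, kb), with open circles at 0 for start groups without a hotspot and a dashed line at the lower bound of the top 10% of all hotspots. In LAMA3 the start 183.6 kb in stands above the first, 33.2 against 17.6.

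Over all 40 genes, 53 of 113 start groups had a hotspot. Of the 27 genes with several start groups, 4 had a hotspot at every group, 18 at some and 5 at none. Start groups were not counted over all protein-coding genes, so these counts have no background and describe the set only. When only the start group of the canonical transcript was counted, 23 of the 40 genes had a promoter hotspot, against 70.6% of all genes.

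Matrix-binding integrins of epithelia and many tissues had a promoter hotspot at 8 of 10 genes, 5 of them in the top 10%. ITGB1, the beta chain shared by the largest group of integrins, had the highest promoter score of the whole set, 40.2, in a hotspot of 1591 bp at the start group of 22 transcripts, while its 4 other start groups had none. ITGAV, the alpha chain of receptors that bind vitronectin and activate latent TGF-beta, scored 32.3. ITGA3, whose product pairs with that of ITGB1 as a laminin receptor of epithelia, scored 32.2 in a hotspot of 2300 bp. ITGB5 and ITGB8, partners of ITGAV, scored 27.0 and 20.7. The collagen receptor chains ITGA1 and ITGA2 scored 13.9 and 13.5, and ITGA5, the fibronectin receptor chain, 10.9. The only start of ITGA1 coincides with that of PELO, so its promoter hotspot cannot be told apart from that of PELO.

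ITGB6 and ITGA9 had no promoter hotspot. ITGB6, an epithelial partner of ITGAV that activates latent TGF-beta, nevertheless had 27 assigned hotspots, 16.0 per 100 kb. Of these, 5 were in the top 10%, the most in the set, against 4 at ITGA3. Within 30 kb upstream of the ITGB6 start lay 11 of the 27, with a median score of 13.5, and 4 of the 11 were in the top 10%. Among those 4, the hotspot at 160224053 to 160224623 scored 16.1, the lower bound itself. The highest, 25.9, was centred 5.16 kb upstream (chromosome 2, 160204882 to 160206054). Downstream of the start lay 11 with a median of 6.74, of which the highest, 19.9, was 41.9 kb into the gene. The RefSeq promoter of ITGB6 held no CpG dinucleotide and was 31.7% G and C. ITGA9, the chain of a tenascin and osteopontin receptor, also had 27 assigned hotspots, but 0 in the top 10% and a highest score of 8.62.

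**Figure D3:**
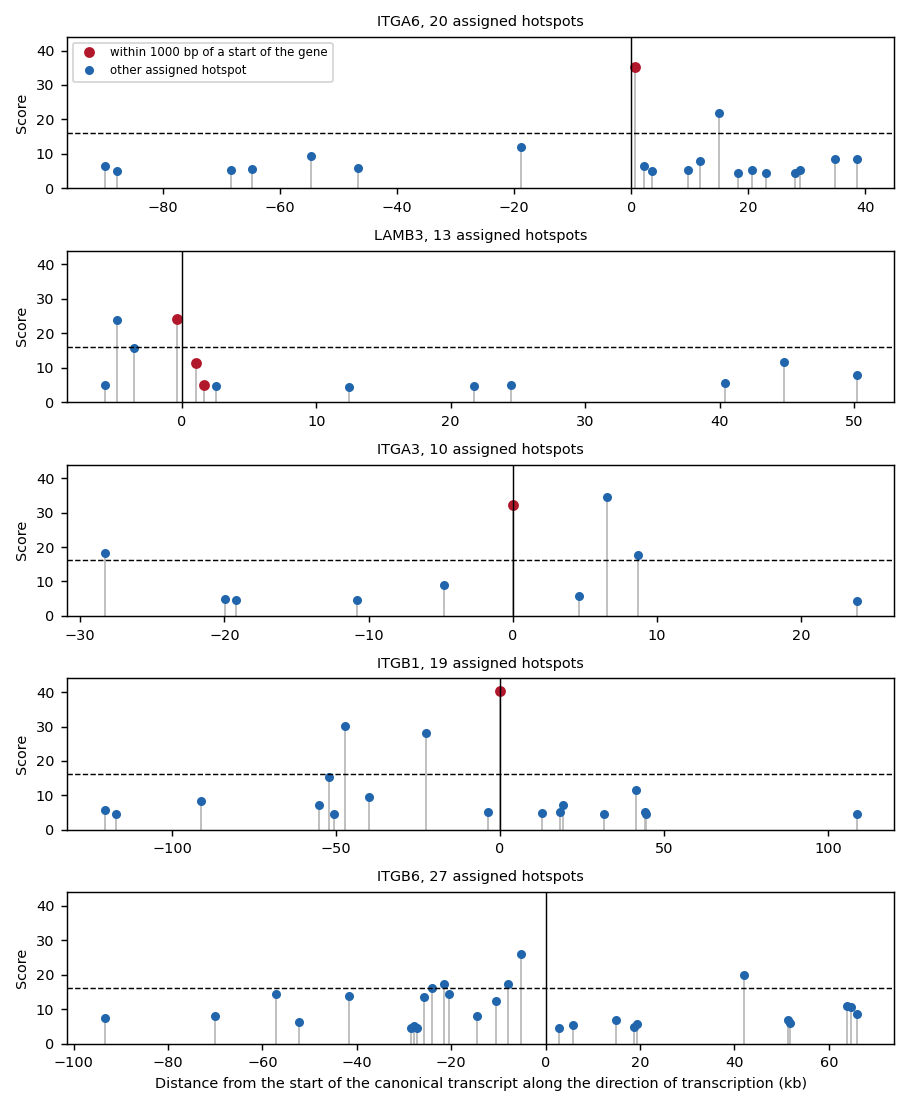
Score (y axis) of every hotspot assigned to ITGA6, LAMB3, ITGA3, ITGB1 and ITGB6 against the distance of its midpoint from the start of the canonical transcript (x axis, kb, negative upstream), in red where it is a promoter hotspot of the gene. The dashed line is the lower bound of the top 10% of all hotspots. ITGB6 has no red point, and 4 of its 5 hotspots at or above the dashed line lie upstream of the start, with the other, 19.9, downstream.

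Of 4 alpha chains of muscle, kidney, cartilage and mesenchyme, 2 had a promoter hotspot and 0 had one in the top 10%, against 74.9% and 46.8% of all genes. ITGA11, a collagen receptor chain of fibroblasts, scored 6.72 and ITGA10, of cartilage, 5.36. ITGA7, the laminin receptor chain of muscle, and ITGA8, of kidney development, had none, and each had 1 assigned hotspot. ITGA11 had 17 assigned hotspots, with a highest distal score of 6.28, so this list held the genes with the fewest hotspots and one with many weak ones.

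Leukocyte and platelet integrins had a promoter hotspot at 5 of 10 genes (interval 18.7 to 81.3%), and 0 in the top 10% (interval 0 to 30.8%), against 74.9% and 46.8% of all genes. ITGAM scored 12.2, ITGB2, the common beta chain of leukocyte integrins, 10.8, ITGA2B, the platelet fibrinogen receptor chain, 6.53, and ITGAE and ITGB7, which form the receptor for E-cadherin on lymphocytes of epithelia, 5.13 and 4.76. Apart from ITGAE, these hotspots lay at starts other than that of the canonical transcript, 15.6 kb in for ITGAM and 4.31 kb in for ITGA2B. By the canonical start group alone, 1 of the 10 genes had a hotspot. ITGAL, ITGAX and ITGAD, which pair with ITGB2, ITGA4, a chain of lymphocyte homing, and ITGB3, the platelet partner of ITGA2B, had none at any start. ITGAX had a hotspot of 11.7 centred 1.43 kb upstream, outside the 1000 bp limit. The highest distal hotspot of the list, 26.0, was at ITGAE (chromosome 17, 3754414 to 3755383), and ITGAM had the most assigned, 15.

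Of 9 other laminin chains, 6 had a promoter hotspot (66.7%) and 3 had one in the top 10% (33.3%), against 74.9% and 46.8% of all genes. LAMA5, the alpha chain of many adult basement membranes, scored 26.2 in a hotspot of 3076 bp, the widest promoter hotspot named here. It lies on chromosome 20, which held 138.6 hotspots per Mb, against a median of 56.1 over chromosomes. LAMC1, the gamma chain of most laminins, scored 18.8, and LAMB1 16.5. LAMB2 scored 10.9 and LAMA4, of vessels and muscle, 7.87. LAMA2, the muscle laminin chain, had the most assigned hotspots of the list (14) but none at its canonical start, and its promoter hotspot of 9.00 lay 607.5 kb in. LAMA1, an early embryonic chain, LAMB4 and LAMC3 had none. LAMA1 still had 13 assigned hotspots, with a highest of 22.2 in an exon 79.2 kb from the start.

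Hotspots assigned to the 40 genes numbered 418, with a median of 8.5 per gene, against 5 over all genes. At least 10 were assigned to 19 genes (47.5%), against 23.9% of all genes. The genes of the set also lie in more sequence of their own, with 128.9 kb per gene within 100 kb and nearest to their starts, against 89.6 kb over all genes. Per 100 kb of such sequence the set had 8.11 hotspots and all genes had 7.55, so the density was near the background. By list, densities were 9.69 per 100 kb at leukocyte and platelet integrins, 9.50 at the hemidesmosome and its laminin, 8.71 at matrix-binding integrins, 6.44 at alpha chains of muscle, kidney, cartilage and mesenchyme, and 5.51 at other laminin chains. The order of these densities differed from that of the promoter scores, since the list with the lowest promoter scores but one came first.

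**Figure D4:**
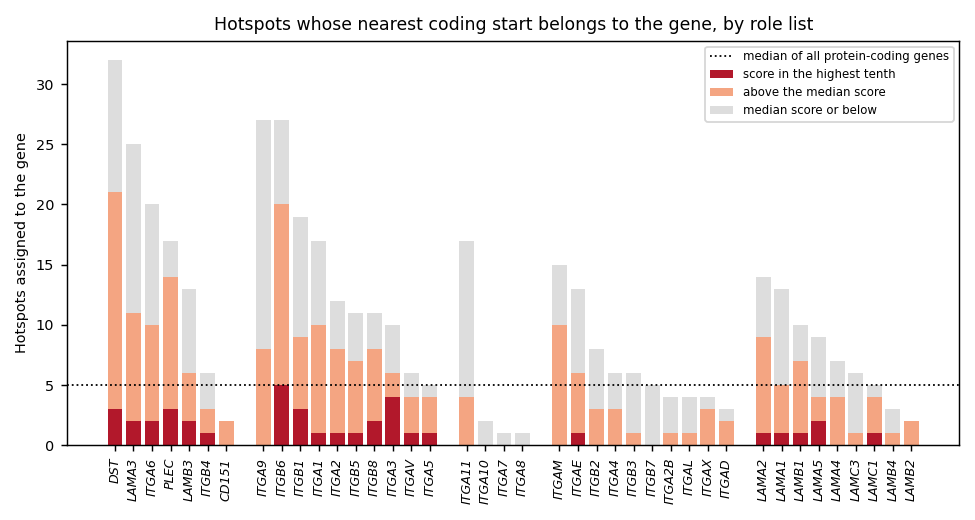
Number of hotspots assigned to each of the 40 genes (y axis), grouped by role list and split into those in the top 10% of scores, other hotspots above the median score, and hotspots at or below it. The dotted line is the median of all protein-coding genes (5). DST has the most, 32, and ITGB6 the most in the top 10%, 5.

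DST had the most assigned hotspots, 32, followed by ITGB6 and ITGA9 with 27, LAMA3 with 25 and ITGA6 with 20. PLEC had 17, LAMB3 13, ITGB4 6 and CD151 2. Per 100 kb the order changed to 23.6 at CD151, 23.4 at PLEC, 20.7 at LAMB3, 11.1 at ITGB4, 10.3 at ITGA6, 8.47 at LAMA3 and 6.12 at DST.

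Of the 418 hotspots, 358 were distal, over 1000 bp from every coding start. Their median score was 5.74, against 5.61 for all assigned distal hotspots, and 6.42% of them were in the top 10%, against 5.73%. Introns held 68.7% of them and 50.1% of all assigned distal hotspots, and 255 of the 358 lay within the gene they were assigned to. At 10 of the 28 genes with a promoter hotspot, the highest distal hotspot scored above it. This count was not made over all genes, so whether it is particular to the set is unknown.

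The highest distal scores of the set were at ITGA3, ITGB1, ITGAE and ITGB6, followed by PLEC, DST and LAMB3. ITGA3 had a hotspot of 34.5 in an intron 6.21 kb downstream of its start (chromosome 17, 50062228 to 50063076), above its promoter. ITGB1 had one of 30.1 in an exon at the upstream end of the annotated gene, 13.2 kb upstream of its nearest start of a protein-coding transcript. PLEC had one of 25.3 in an intron, DST one of 24.8 in an intron, and LAMB3 one of 23.7 at 4.80 kb upstream, next to one of 15.7 at 3.56 kb. ITGA6 had one of 22.0 in an intron 14.6 kb downstream of its nearest start, and ITGB4 one of 15.5 at 1.99 kb. LAMA3 had the lowest value of its list, with a highest distal score of 8.48 among 21 distal hotspots, and CD151 had no distal hotspot. The highest distal hotspot of ITGA2, 16.1, lay 66.9 kb upstream of its start within ITGA1, the neighbouring gene.

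An AP-1 site lay within 300 bp around the midpoint of 70 of the 358 distal hotspots (19.6%, interval 15.6 to 24.0), against 12.0% of all assigned distal hotspots. Medians of G and C content in these windows were 51.0% and 52.3%. Among hotspots above the median score, the shares were 23.4% (41 of 175) and 16.0%. The interval of the set lay above the share of all hotspots in both cases. By list, the share was highest at matrix-binding integrins, 25.8% (34 of 132, interval 18.5 to 34.1), and 17.8% (16 of 90) at the hemidesmosome and its laminin. It was 16.7% (3 of 18) at alpha chains of muscle, kidney, cartilage and mesenchyme, 15.5% (9 of 58) at leukocyte and platelet integrins, and 13.3% (8 of 60) at other laminin chains. The intervals of the lists other than matrix-binding integrins included 12.0%. Hotspots of 1 gene share their surroundings and are not independent of each other. The same holds for the neighbouring genes ITGA1 and ITGA2, which held 6 and 7 of the 34 at matrix-binding integrins.

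**Figure D5:**
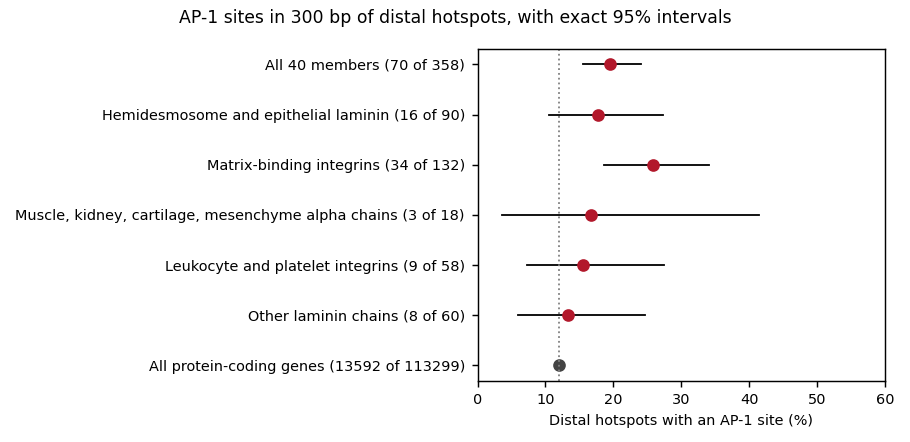
Share of distal hotspots with an AP-1 site in the 300 bp around the midpoint (x axis, percent) for the 40 genes, for each role list and for all protein-coding genes, with exact 95% intervals as lines and counts beside the names. The interval of the matrix-binding integrins lies right of the dotted line at 12.0%, the share over all protein-coding genes.

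Sites were unevenly spread over the genes. ITGA2 had an AP-1 site at 7 of 10 distal hotspots, ITGA1 at 6 of 15, DST at 5 of 27, ITGA6 at 4 of 19, LAMB3 at 4 of 10, ITGB5 at 4 of 9 and ITGAV at 3 of 5. ITGB1 had one at 1 of 18, LAMA3 at 1 of 21, and ITGB4 and LAMA1 at 0 of 4 and 0 of 13. Counted over whole hotspots, LAMA3 had 6 sites in 4 hotspots, 3 of them in the promoter hotspot of the short form and 1 in each of 3 distal hotspots. ITGA2 and ITGA1 had 5 sites each by this count, all in distal hotspots. Many hotspots are narrower than 300 bp, with a median width of 295 bp for these distal hotspots, so some sites lie just outside the called region.

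The other motifs were counted in the same windows. A RUNX site (AACCACA) was in 7.54% of the 358 windows (interval 5.03 to 10.8), against 5.71% of all, a TEAD site (ACATTCCA, ACATTCCT, GCATTCCA or GCATTCCT) in 6.98% (4.57 to 10.1), against 6.21%, and an ETS site (AGGAAGTG or CGGAAGTG) in 4.47% (2.58 to 7.16), against 3.36%. A CTCF match was in 1.68%, against 1.53%. A CREB site (TGACGTCA) was in 3 of the 358 (0.838%, interval 0.173 to 2.43), against 0.247%, and a TATA box match in 11.5% (8.35 to 15.2), against 9.35%. All were searched on both strands, and the CTCF and glucocorticoid receptor motifs are longer consensus sequences. A glucocorticoid receptor match was in 0 windows of the set, which allows a share of up to 1.03% by the exact interval, and in 7 of all 113299.

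Promoter sequences of RefSeq (GRCh38.p14, 250 bases before to 50 after a start) matched 27 of the 40 genes. They held a median of 15 CpG dinucleotides, against 22 over 15843 protein-coding promoters, and the ratio of observed to expected CpG was 0.58, against 0.76. An SP/KLF site (GGGCGGGG) was in 3 of 27 (11.1%), against 31.6% of all, and an AP-1 site in 3 of 27 (11.1%), against 3.66%, at DST, LAMA3 and ITGA5. Over the promoter hotspots themselves, 14 of 61 windows held an SP/KLF site (23.0%), against 23.6% of all. These windows take in alternative starts and genes without a RefSeq match, such as PLEC, CD151 and ITGB4. The SP/KLF shares at RefSeq promoters and at promoter hotspots are therefore of unlike sets.

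Adaptors that link integrins to actin and to signalling had a promoter hotspot at 14 of 15 genes, 10 of them in the top 10%. The intervals of these shares, 68.1 to 99.8% and 38.4 to 88.2%, included the 74.9% and 46.8% of all genes. Vinculin (VCL) scored 45.7, kindlin-1 (FERMT1), the epithelial kindlin, 34.0, focal adhesion kinase (PTK2) 33.7, LIMS1 32.7 and talin (TLN1) 32.0, although the hotspot at TLN1 is shared with the start of CREB3 and TLN1 had 0 assigned hotspots. FERMT3, the kindlin of blood cells, had no hotspot at its starts and 0 assigned. Of 5 partners of laminin in the basement membrane, dystroglycan (DAG1) scored 47.2, agrin (AGRN) 25.6 and perlecan (HSPG2) 22.5, and the nidogens NID1 and NID2 had no promoter hotspot.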

How the data were processed

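MCF10A cells were profiled by ATAC-seq in 5 replicates. The authors aligned reads to hg38 with Bowtie2 (version not given in the sources used here), merged the replicates, removed duplicates and called regions with the program Hotspot (false discovery rate 0.01). Mitochondrial reads were removed for a coverage track; neither that nor a Tn5 shift is stated for the alignments given to Hotspot. The deposited values are a score per hotspot as Hotspot wrote it, with no stated normalization. Merged calls and an unknown depth mean that precision cannot be given per sample.

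Starts were those of protein-coding transcripts of protein-coding genes in GENCODE release 44 (78511 gene and start pairs). Hotspots nearest to a start shared by several genes counted for each. Of all hotspots, 73.1% were assigned within 100 kb. Motifs were exact consensus matches on both strands of hg38. Promoter overlap, assignment, the length of sequence nearest to each gene and motif search were tested on simulated data. Alternatives were other windows, Ensembl canonical starts, midpoints, a score minimum, a shorter limit, all gene types as competitors, other motif windows and the set without dense regions.

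The members, role lists and motifs were chosen with earlier results of these data known. Named genes are all hemidesmosome and laminin members, and per other list the 3 highest promoter scores, every gene with no promoter hotspot and the gene with the most assigned hotspots; other members are given briefly. Software was Python 3.11.15 with numpy 2.4.6, pandas 2.3.3, scipy 1.17.1 and matplotlib 3.10.9. Sequence at ITGB4 is not reported here.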

Additional observations from a re-analysis of the deposited data

How the results depend on the processing

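Of 29 alternative values, 25 stayed within 1.5 times the value given or, for the AP-1 share, within its interval. With only hotspots above the median score, the median was 4 assigned hotspots per gene (2 over all genes), the total 222 and the density 4.31 per 100 kb (3.78 over all genes), since fewer hotspots are counted. Searched in 120 bp, an AP-1 site was in 11.2% of distal hotspots of the set, against 6.26% of all, since the window is shorter. In the other settings that AP-1 share lay between 16.9%, when genes of every type compete for a hotspot, and 23.4%. The number of genes with a promoter hotspot lay between 23, by canonical starts, and 30, within 2000 bp, where ITGA7 and ITGAX gained one. By midpoint LAMA5 lost its promoter hotspot, which is wide and centred inside the gene. Without LAMA5, the 1 member on chromosome 20, the density was 8.01 per 100 kb. No paired analysis was possible because the replicates were merged before the calls, and leaving out a replicate was not possible for the same reason.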

Other observations

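An exact match to the consensus of the p53 family of factors, which includes the basal epithelial regulator p63, lay in 1 of the 61 promoter hotspot windows of the set, against 5 of all 19599. It lies in LAMA3, in a hotspot with a score of 8.62 (chromosome 18, 23883452 to 23883802) whose midpoint is 1.15 kb upstream of the start of LAMA3-206 and of which only the edge reaches within 1000 bp of that start. This feature was chosen after its values were seen. Among distal windows, a match to the same consensus was in 0 of the 358 of the set (interval up to 1.03%), against 49 of all 113299. NID1, a nidogen that joins laminin to collagen networks, had no promoter hotspot, but an assigned hotspot 32.1 kb upstream had a score of 77.4, above every score of the 40 genes.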
